A study of Arabidopsis thaliana with 22 samples.

Results

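Peaks of acetylated histone H3 lysine 23 (H3K23Ac) that were found in the ein2-5 mutant and not in wild-type Col-0 numbered 106, out of 10909 peaks in the ein2-5 H3K23Ac ethylene list and 105488 peaks in all 10 lists. They were chosen by 3 conditions. Each is a peak of the ein2-5 H3K23Ac ethylene list, overlaps by at least 1 bp a peak of the ein2-5 H3K23Ac air list, and overlaps no peak of any of the 6 Col-0 lists (H3K9Ac, H3K14Ac and H3K23Ac, each with ethylene and in air). The chromatin came from whole Arabidopsis thaliana seedlings grown for 3 days in the dark. ein2-5 seedlings, which carry a loss-of-function allele of EIN2, and wild-type Col-0 seedlings were kept in 10 p.p.m. ethylene for 4 h or in air. Replicate libraries were pooled before peaks were called, except that the labels give a single library for each Col-0 H3K14Ac list, so there is 1 list for each genotype, mark and treatment. No replicate spread can be given and no test between conditions was run. Intervals in brackets are 95% Wilson intervals for shares of peaks, and they cover counting error only.

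EIN2 is a membrane protein of the endoplasmic reticulum that carries the ethylene signal from the receptors and the kinase CTR1 to the transcription factors EIN3 and EIL1 in the nucleus. Acetylation of lysines in the tail of histone H3 loosens the contact of the tail with DNA, is read by bromodomain proteins and lies mostly at the 5′ ends of transcribed genes. H3K9Ac, H3K14Ac and H3K23Ac often occur at the same nucleosomes. ein2 seedlings are insensitive to ethylene, so the air and ethylene lists of ein2-5 come from plants that lack the main response to the gas.

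The 106 peaks lay inside protein-coding genes or outside them, and the base composition of the 2 positions differed, as is shown here by the 3 with the highest −log10 P among those with the summit in coding sequence and the 3 with the highest −log10 P among those outside annotated genes, leaving out windows that hold untranslated exons. Each sequence is 81 bases of the plus strand of TAIR10, and the capitals mark the 11 bases centred on the summit of the ethylene peak. They belong to PRMT10 (chr1:1375510-1375590), EMB1025 (chr4:10870201-10870281) and CSN6B (chr4:13355297-13355377), and to the intergenic peaks nearest to PMAT2 (chr3:11511452-11511532), PLC8 (chr3:17418131-17418211) and AT1G68570 (chr1:25751051-25751131).
PRMT10: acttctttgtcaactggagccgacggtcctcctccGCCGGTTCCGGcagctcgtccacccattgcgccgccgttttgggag
EMB1025: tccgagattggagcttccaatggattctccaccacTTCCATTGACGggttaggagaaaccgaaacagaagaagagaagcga
CSN6B: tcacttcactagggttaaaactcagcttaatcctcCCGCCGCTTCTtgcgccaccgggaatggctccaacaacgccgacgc
near PMAT2: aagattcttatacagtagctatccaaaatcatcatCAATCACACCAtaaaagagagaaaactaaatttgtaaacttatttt
near PLC8: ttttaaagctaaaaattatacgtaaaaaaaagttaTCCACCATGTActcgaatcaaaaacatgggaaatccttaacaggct
near AT1G68570: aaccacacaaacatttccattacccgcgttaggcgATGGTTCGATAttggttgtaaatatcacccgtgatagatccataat
G and C made up 64.2% of the PRMT10 stretch, 48.1% of the EMB1025 stretch and 56.8% of the CSN6B stretch. They made up 25.9% of the stretch nearest to PMAT2, 29.6% of that nearest to PLC8 and 40.7% of that nearest to AT1G68570.

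Few peaks met both conditions of the rule. Of all peaks in the ethylene list, 74.5% overlapped an ein2-5 air peak, and 2.98% overlapped no Col-0 peak. Of the 8129 ein2-5 peaks shared between the treatments, 8023 overlapped at least 1 Col-0 peak and are called the other shared peaks below. The Col-0 H3K9Ac ethylene list overlapped 7892 of the 8129 and was the only list to overlap 205 of them. The Col-0 H3K23Ac lists overlapped 6967 with ethylene and 3427 in air. There is no H3K9Ac list for ein2-5, and without the 2 Col-0 H3K9Ac lists the rule would take 682 peaks. With only the 2 Col-0 H3K23Ac lists it would take 1019.

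The depth of the IgG control differed between lists, and with it the weakest peak that could be called. The control held 4333059 tags for the ein2-5 ethylene lists and 13683768 for the ein2-5 air lists, against 10479732 for the Col-0 ethylene lists and 2438541 for the Col-0 air lists. ChIP tags numbered 30688135 with ethylene and 36052363 in air for ein2-5 H3K23Ac, against 37674460 and 32215289 for Col-0 H3K23Ac. At the lowest background of each list and the authors' P threshold of 0.01, a peak needed a fold enrichment of at least 1.827 with ethylene and 1.497 in air for ein2-5 H3K23Ac, against 1.577 and 2.105 for Col-0 H3K23Ac. Where the background was higher, lower folds could be called. Fold enrichment is the tag coverage at the summit divided by the local background, each with 1 added. The lists hold only called peaks, so the acetylation level of Col-0 at these 106 places is not known from them, and "only in ein2-5" means that no Col-0 peak was called there. The part of depth in the absence of a Col-0 call was not tested. A rescaling to a common control depth, given below, changed only the ein2-5 lists and left the Col-0 lists as called.

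The edge of the rule ran through closely placed peaks. The peak in FD3, a ferredoxin gene, ended next to a Col-0 H3K9Ac ethylene peak with 0 bp between them, that in AT2G43630 lay 1 bp from one, and that in FBH3, which encodes a bHLH activator of the flowering gene CONSTANS, lay 27 bp from one. Their fold enrichments with ethylene were 1.99, 1.78 and 2.08. Just outside, ein2-5 peaks were ranked by their largest overlap with any Col-0 peak. The smallest such values were in PAP10 (51 bp), AT1G65985 (67 bp) and HXK2 (83 bp), with fold enrichments of 2.13, 1.99 and 1.80. Most of the 106 were farther away. The distance to the nearest Col-0 peak had a median of 1657 bp and a highest value of 6760 bp, 7 peaks lay under 200 bp and 71 lay 1000 bp or more from it. The nearest Col-0 peak was one of H3K9Ac ethylene for 76 peaks, and that list was the largest of Col-0, with 18003 peaks. The farthest were the peaks in AT2G16990 (6760 bp), which encodes a major facilitator transporter, 5836 bp from AT5G35430 (5770 bp) and 259 bp from PWD (5669 bp), the gene of phosphoglucan, water dikinase of starch breakdown.

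The 106 peaks were weak and narrow. The values in this and the next paragraph come from the calls that chose the peaks and are given as a description. With ethylene, the fold enrichment had a lowest value of 1.67, a median of 2.103 and a highest value of 2.88, against 1.46, 2.23 and 4.37 for the 8023 other shared peaks. The median −log10 P was 3.16 (2.03 to 5.67) against 4.56 (2.01 to 14.1). The median coverage at the summit was 20.1 tags against 29.5, over a median background of 8.58 tags against 12.2. The median width was 253.5 bp against 404 bp. A q under 0.05 was reached by 64 of the 106 (60.4%) and by 85.2% of the other shared peaks. Of the 106, 55 reached it in both treatments. In air, their fold enrichment ran from 1.43 to 3.02 with a median of 1.80, and the background had a median of 26.8 tags with the deeper control. The fold enrichment was larger with ethylene at 93 peaks and larger in air at 13. It was set against controls of unequal depth, so these 2 numbers are not a comparison of treatments.

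The strongest of the 106 by −log10 P lay between genes (chr3:11511316-11511634), 16264 bp from PMAT2, a malonyltransferase gene, with a fold enrichment of 2.88 with ethylene and 2.04 in air. It was also 1 of only 2 peaks in a gene-poor window (a 100-kb window with fewer than 10 starts of protein-coding genes). The next was in the coding sequence of PRMT10 (chr1:1375415-1375674), a protein arginine methyltransferase gene, 271 bp from its start, with 2.67 and 2.09. The third lay in the pseudogene AT5G07215 (chr5:2262585-2262870), with 2.75 with ethylene and 2.52 in air. It was followed by EMB1025 (chr4:10870072-10870528), a pentatricopeptide repeat gene, with 2.79 and 1.69, by CSN6B (chr4:13355221-13355441), which encodes a subunit of the COP9 signalosome that removes NEDD8 from cullins, with 2.55 and 2.45, and by the major facilitator gene AT3G01630 (chr3:237247-237465), with 2.67 and 2.01. These 6 lay between 2.55 and 2.88 with ethylene, but in air EMB1025 was below the median of the 106. The peak with the highest fold enrichment in air was that in AIR3 (chr2:1403376-1403629), a subtilisin-like protease gene, with 2.29 with ethylene and 3.02 in air. The 3 weakest by −log10 P lay 909 bp from AT4G10910, in THAS1 and 484 bp from AT4G01960, with ethylene fold enrichments of 1.67, 1.79 and 1.76.

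**Figure D1:**
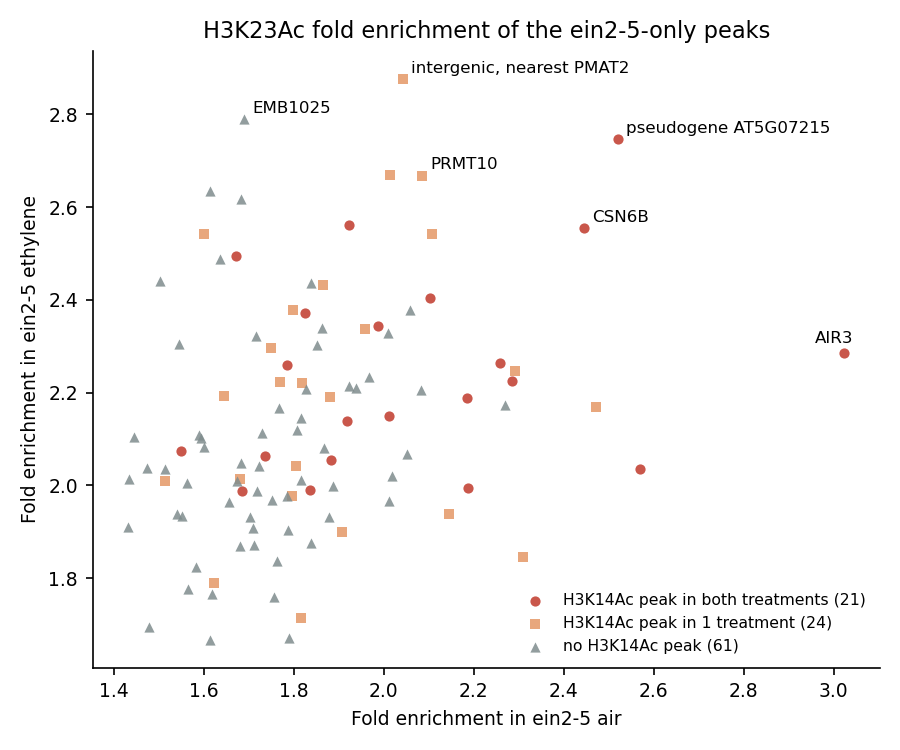
Fold enrichment of H3K23Ac at each of the 106 ein2-5-only peaks with ethylene (vertical axis) and in air (horizontal axis), with points marked by whether an ein2-5 H3K14Ac peak overlapped them. All points lie between 1.67 and 2.88 with ethylene, and AIR3 stands at 3.02 in air, the highest air value.

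The ein2-5 H3K14Ac lists come from other immunoprecipitations and were not used by the rule, though they share the IgG controls of the H3K23Ac lists, and the rule did leave out every place with a Col-0 H3K14Ac peak. An ein2-5 H3K14Ac peak overlapped 45 of the 106 peaks in at least 1 treatment, which is 42.5% (33.5 to 52.0%), against 83.4% (82.6 to 84.2%) of the other shared peaks and 74.0% of all peaks in the list. With ethylene the share was 28.3% (20.6 to 37.5%) against 71.5% (70.5 to 72.5%), where the whole list had 64.7%. In air it was 34.0% (25.6 to 43.4%) against 69.1% (68.0 to 70.1%), where the whole list had 53.6%. In both treatments it was 19.8% (13.3 to 28.4%) against 57.2% (56.1 to 58.2%), where the whole list had 44.3%. The remaining 61 peaks overlapped no H3K14Ac peak, while 9 overlapped one with ethylene only and 15 in air only. The share depended on how strict the ein2-5 calls were, and was 90.0% of the 10 peaks left at the common control depth and 71.4% of the 21 peaks with a fold enrichment of at least 2 in both treatments. The share of the other shared peaks is not given under these settings. It too rose with strength, from 69.1% in the lowest quartile of the ethylene list by −log10 P to 95.2% in the highest. The ein2-5-only peaks are also narrower than the rest, with a median of 253.5 bp against 404 bp, and the part of width in the overlap was not tested.

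The peaks were weaker than the rest, and H3K14Ac overlap rose with strength, so the shares were also taken within quartiles of the ethylene list by −log10 P. In quartile 1, the lowest, which held 58 of the 106, 34.5% (23.6 to 47.3%) overlapped an H3K14Ac peak, against 69.1% (66.9 to 71.3%) of the other shared peaks. In quartile 2 it was 47.1% (31.5 to 63.3%) of 34 peaks against 78.9% (76.9 to 80.7%). In quartile 3 it was 61.5% (35.5 to 82.3%) of 13 peaks against 85.5% (83.9 to 86.9%). The intervals were apart in each of these quartiles, and quartile 4 held 1 of the 106. The quartiles match only −log10 P with ethylene, and strength in air was not matched. In quartile 1 the 58 peaks had a median coverage of 19.13 tags against 26.83 for the other shared peaks. Their median width was 242.5 bp against 317 bp, and their median fold enrichment 1.99 against 1.77. The part of these remaining differences in the overlap was not tested.

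**Figure D2:**
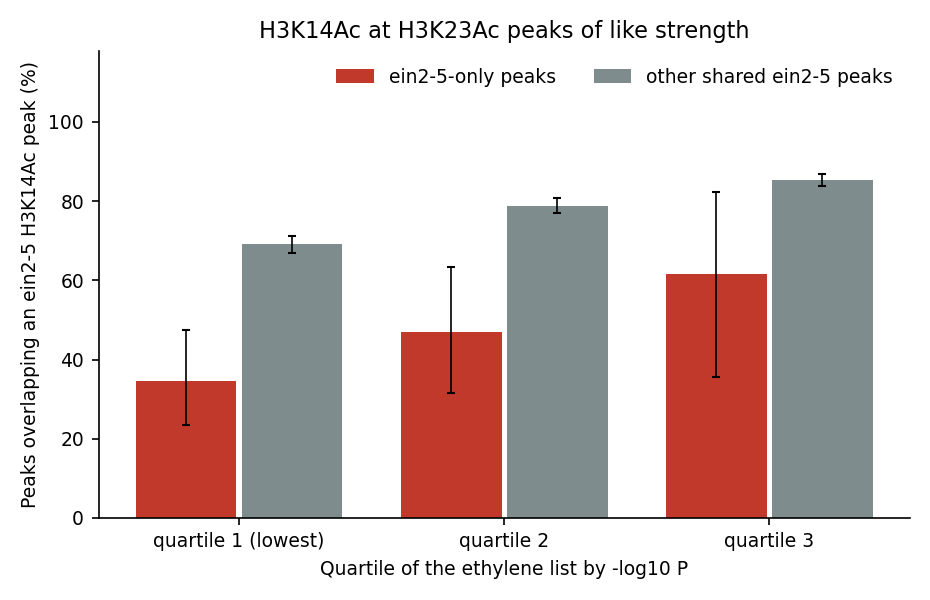
Share of H3K23Ac peaks that overlapped an ein2-5 H3K14Ac peak in at least 1 treatment, for the ein2-5-only peaks and the other shared ein2-5 peaks in quartiles 1 to 3 of the list by −log10 P, with 95% Wilson intervals as error bars. The ein2-5-only peaks lie at 34.5%, 47.1% and 61.5%, under the other shared peaks of the same quartile at 69.1%, 78.9% and 85.5%. Within a quartile the sets still differ in median coverage and width, and strength in air is not matched.

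The 21 peaks present in all 4 ein2-5 lists, and so with both marks and both treatments, were nearly all in coding genes. The summit was in a protein-coding gene for 20 of them, and the remaining peak was that of the pseudogene AT5G07215. So it was for 4488 of the 4586 other shared peaks with H3K14Ac in both treatments, and nothing particular is read from the 20. In 16 of the 20 genes no Col-0 list held a peak anywhere in the gene, against 45 of the 67 genes of all ein2-5-only peaks. The rule partly sets these counts. At CSN6B the H3K14Ac fold enrichment was 2.78 with ethylene and 2.11 in air, and at AIR3 it was 2.49 and 2.81. At LSU2, a gene induced by low sulfur, H3K23Ac stood at 2.15 with ethylene and 2.01 in air, and H3K14Ac at 2.38 and 1.67. At AGP11, an arabinogalactan protein gene known from pollen, H3K23Ac stood at 2.23 and 2.28, and H3K14Ac at 2.30 and 2.00. At UGT85A3, a glucosyltransferase gene, H3K23Ac stood at 2.26 in both treatments, and H3K14Ac at 1.84 and 1.70. Over the 21 peaks the H3K14Ac fold enrichment had a median of 2.28 (1.84 to 2.88) with ethylene and 1.98 (1.47 to 2.81) in air, close to the range of H3K23Ac at the same places, with medians of 2.23 and 1.99.

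Of the 106 peaks, 39 lay outside protein-coding genes. The summit lay in a protein-coding gene for 67 of the 106, which is 63.2% (53.7 to 71.8%), against 96.0% (95.6 to 96.4%) of the other shared peaks. This share depended on the rule, and was 88.6% without the Col-0 H3K9Ac lists, 91.7% with only the Col-0 H3K23Ac lists and 90.0% at the common control depth. For the 219 ein2-5 ethylene peaks with neither a Col-0 peak nor an ein2-5 air peak it was 60.7% (54.1 to 66.96%). The coding sequence held 52 summits, introns 8 and untranslated regions 7. The summits given to AT1G48750, AT1G62240 and AT3G21400 lay in 2 overlapping coding genes each, so that the gene is uncertain for these 3. Of the 39 outside coding genes, 7 were within 1 kb upstream of one, 10 within 1 kb downstream, 2 in a pseudogene or noncoding gene and 20 elsewhere. These last made up 18.9% (12.6 to 27.4%) of the 106 peaks and 0.848% (0.669 to 1.07%) of the other shared peaks. The shares were also taken within the quartiles of −log10 P, in which the ein2-5-only peaks still differed in coverage and width. In quartile 1 the median coverage was 19.1 tags against 26.8 and the median width 242.5 bp against 317 bp. In quartile 1, 56.9% (44.1 to 68.8%) of the ein2-5-only peaks were in coding genes against 95.4% (94.3 to 96.3%) of the other shared peaks, and in quartile 2, 67.6% (50.8 to 80.9%) against 95.5% (94.4 to 96.4%). In quartile 3, 84.6% (57.8 to 95.7%) stood against 96.6% (95.7 to 97.3%), and these intervals met. Within 2 kb of a coding gene lay 94 of the 106, 88.7% (81.2 to 93.4%), against 98.9% (98.6 to 99.1%), and 2 of the 106 (1.89%) were in gene-poor windows against 1.45%. Chromosomes 1 to 5 held 33, 13, 22, 14 and 24 of the peaks. These are 31.1, 12.3, 20.8, 13.2 and 22.6%, against 26.0, 15.3, 20.6, 15.7 and 22.3% of the other shared peaks.

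**Figure D3:**
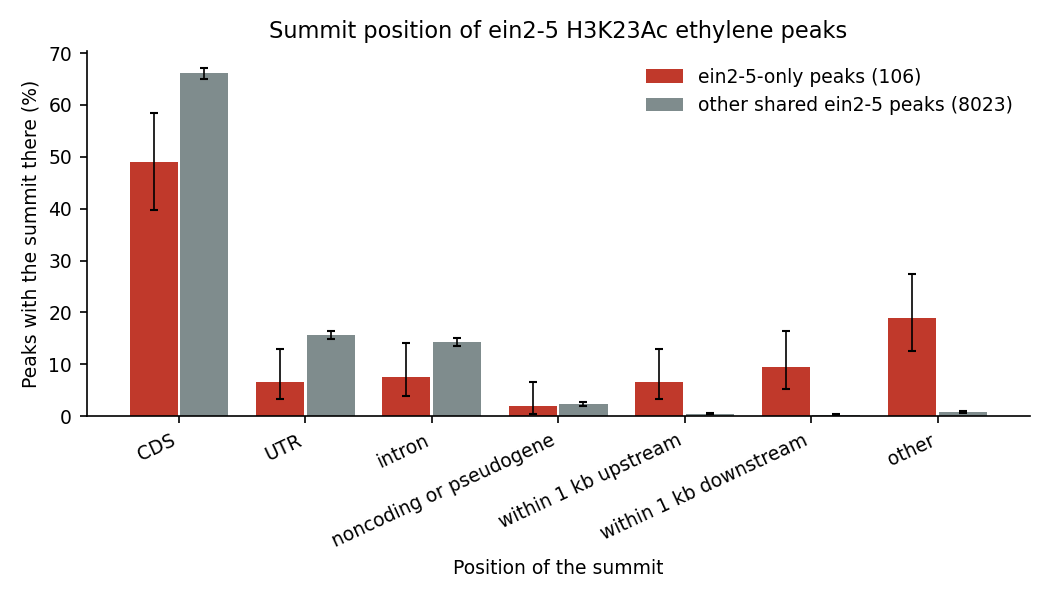
Share of peaks with the summit in each part of the annotation, for the 106 ein2-5-only peaks and the 8023 other shared ein2-5 peaks, with 95% Wilson intervals as error bars. The categories other and within 1 kb downstream hold 18.9% and 9.43% of the ein2-5-only peaks and under 1% of the other shared peaks.

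Inside genes the peaks lay mostly where H3K23Ac usually does. Of the 67 summits in coding genes, 43 (64.2%, 52.2 to 74.6%) were within 500 bp of the annotated start, against 70.2% (69.2 to 71.2%) of the other shared peaks. The median distance from the start was 386 bp against 367 bp. A further 8 were between 500 and 1000 bp from it, and 16 (23.9%, 15.3 to 35.3%) were more than 1000 bp from it, against 9.89% (9.24 to 10.6%). The last 500 bp of the gene held 16 summits (23.9%) against 5.30% (4.82 to 5.82%). The start and end windows overlap in short genes. Of these 16 summits, 6 were also within 500 bp of the start and 1 was between 500 and 1000 bp from it. The other 9 were more than 1000 bp from the start. The part of gene length was not tested.

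Whether Col-0 had a peak elsewhere in the same gene is partly set by the rule, since a gene with an ein2-5-only peak at its start cannot have a Col-0 peak at that place, and it is given as a description. Of the 43 peaks within 500 bp of the start, 36 were in genes with no Col-0 peak of any list. These included PRMT10, CSN6B, EMB1025, LSU1 and RING1. At these genes ein2-5 had a called peak near the start and Col-0 had none in the gene. Of the 16 peaks more than 1000 bp from the start, 13 were in genes that did hold a Col-0 peak elsewhere. MC4, a metacaspase gene with the ein2-5 peak 1627 bp from its start, held peaks of all 6 Col-0 lists, and the aquaporin gene PIP2E, with the peak 2276 bp from its start, held peaks of 5. The other 3 were UGT85A3, CYCB1;5 and AIR3. Over all 67 genes, 45 held no Col-0 peak, 20 held one of H3K9Ac ethylene, 8 one of H3K23Ac ethylene and 4 one of H3K23Ac air. Another ein2-5 H3K23Ac ethylene peak was present in 13 of the 67 genes.

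Position and H3K14Ac went together. In coding genes, 40 of the 67 peaks overlapped an ein2-5 H3K14Ac peak (59.7%, 47.7 to 70.6%), against 84.4% (83.6 to 85.2%) of the other shared peaks in coding genes. Outside coding genes, 5 of 39 did so (12.8%, 5.603 to 26.7%), against 60.1% (54.6 to 65.3%). These 2 groups differ in kind, since 186 of the 318 other shared peaks lay in a noncoding gene or pseudogene, against 2 of the 39. The part of this difference was not tested. Of the 39 peaks outside coding genes, 34 thus rested on H3K23Ac alone. Peaks within 500 bp of the start overlapped H3K14Ac in 58.1% (43.3 to 71.6%) of cases and those more than 1000 bp from it in 56.3% (33.2 to 76.9%), and these did not differ beyond their intervals. The median fold enrichment was 2.14 for the 67 in coding genes and 2.08 for the 39 outside, and the median −log10 P 3.30 and 3.00. The part of strength was not tested.

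**Figure D4:**
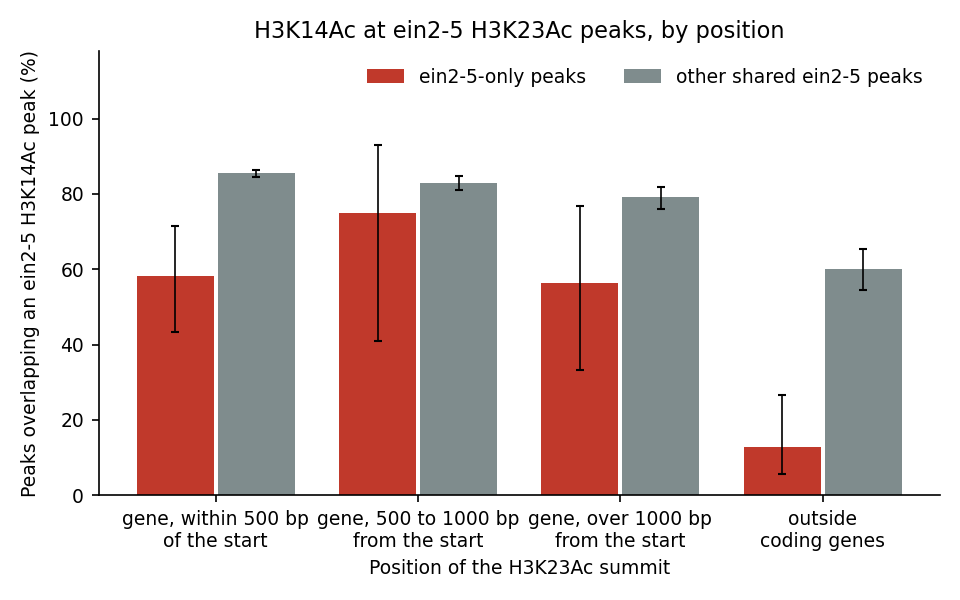
Share of H3K23Ac peaks that overlapped an ein2-5 H3K14Ac peak in at least 1 treatment, by position of the summit, for the ein2-5-only and the other shared ein2-5 peaks, with 95% Wilson intervals as error bars. Outside coding genes the ein2-5-only peaks stand at 12.8% and the other shared peaks at 60.1%. Of the peaks there, 2 ein2-5-only and 186 other shared peaks lie in a noncoding gene or pseudogene.

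The base composition also divided the peaks by position. In 300 bases at the summit, GC content had a median of 44.0% for the 67 peaks in coding genes, against 44.7% for the other shared peaks in coding genes. For the 39 peaks outside coding genes the median was 28.7% (quartiles 26.3 and 33.5%), against 38.7% (33.0 and 43.7%) for the 318 other shared peaks outside coding genes. Of those 318, 186 lay in a noncoding gene or pseudogene, against 2 of the 39. GC was under 35% at 31 of the 39 and at 5 of the 67, and the lowest value was 20.7% and the highest 65.7%. AT-rich DNA is recovered unevenly by PCR and sequencing, and its part in these calls was not tested.

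**Figure D5:**
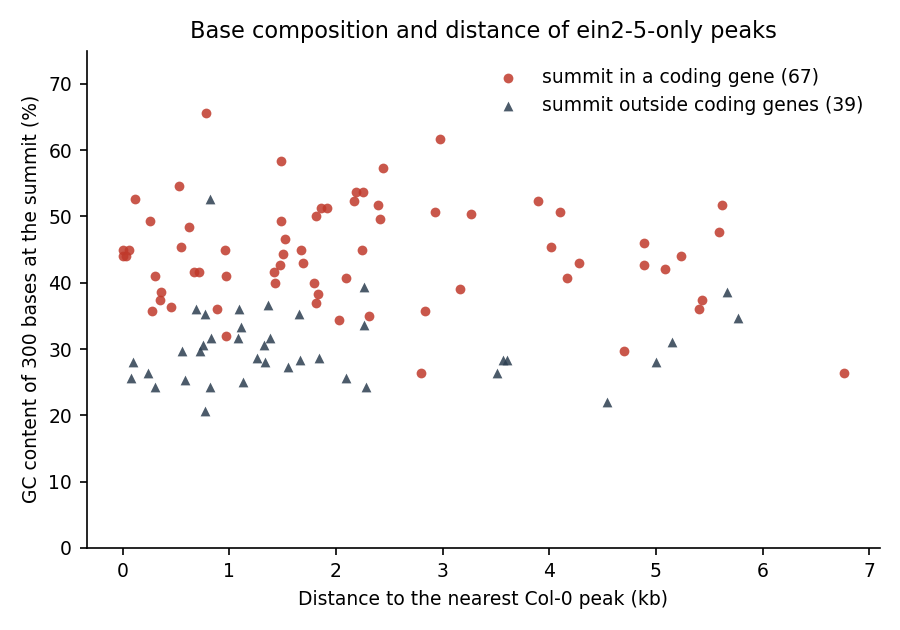
GC content of 300 bases at the summit against the distance to the nearest Col-0 peak in kb, for the 67 ein2-5-only peaks in coding genes and the 39 outside. The 39 outside coding genes have a median GC of 28.7%, against 44.0% for those in coding genes, and lie both near to Col-0 peaks and far from them.

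Short motifs were searched in the same 300 bases on both strands. The G-box CACGTG, the core of bHLH and bZIP sites, was in 6 of the 106 windows, 5.66% (2.62 to 11.8%), against 3.47% (3.09 to 3.89%) of the other shared peaks and 3.14% of the whole list. The windows were those of AT1G22600, FMO GS-OX2, AIR3, AT3G01630, LSU1 and AT5G26700. The GCC-box GCCGCC, the site of ethylene response factors, was in 17.9% (11.8 to 26.3%) against 19.7% (18.8 to 20.5%), and in 17.5% of the whole list. The telo-box AAACCCTA was in 5.66% (2.62 to 11.8%) against 12.9% (12.1 to 13.6%), and in 13.0% of the whole list. The repeat GAGAGAGA was in 10.4% (5.89 to 17.6%) against 12.7% (11.97 to 13.4%), and in 12.9% of the whole list. The interval lay apart from that of the other shared peaks for the telo-box and met it for the other 3 motifs. Within quartiles 1 to 3 of −log10 P the telo-box intervals met. In quartile 1 the share was 3.45% (0.951 to 11.7%) against 11.03% (9.63 to 12.6%). It was 5.88% against 13.5% in quartile 2 and 15.4% against 13.3% in quartile 3. The sets also differ in position, with 63.2% against 96.0% in coding genes, and its part in the telo-box share was not tested. A match is a match of letters and not a bound site.

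The following genes of chromatin and DNA methylation in or near the 106 peaks were picked out after their values were seen, so no theme can be read from them. PRMT10 and SKB1 (also named PRMT5) encode arginine methyltransferases of histone H4 that act on flowering time. The SKB1 peak lay 237 bp from the start, with fold enrichments of 2.22 with ethylene and 1.77 in air. Both genes held no Col-0 peak, and both peaks overlapped an H3K14Ac peak with ethylene and not in air. JMJD5, which encodes a jumonji-domain protein of the circadian clock, had a peak 304 bp from its start with 1.98 and 1.80, and held a peak of 1 Col-0 list. NRPD1B, the largest subunit of RNA polymerase V of RNA-directed DNA methylation, had an intronic peak 296 bp from the start with 2.62 and 1.68, no H3K14Ac peak and its nearest Col-0 peak 5234 bp away. AT3G10440, annotated with a shugoshin C terminus, the mark of proteins that guard centromere cohesion, stood at 2.44 and 1.84. The peak nearest to MBD5, a methyl-CpG-binding domain gene, lay 1379 bp from it with 2.04 and 1.51.

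A few further genes were also picked out after their values were seen. LSU1 and LSU2 are both induced by low sulfur and lie on different chromosomes. The LSU1 peak was in coding sequence 315 bp from the start, with fold enrichments of 1.85 with ethylene and 2.31 in air, and overlapped H3K14Ac in air only. LSU2 had all 4 ein2-5 calls. Neither gene held a Col-0 peak. THAS1, which encodes thalianol synthase, had a peak 2368 bp from its start with 1.79 and 1.62. Another peak lay 2051 bp from CYP708A2, the next enzyme gene of the thalianol cluster, with 2.02 in both treatments. These 2 peaks were 16962 bp apart, the closest pair among the 106, and each lay under 1 kb from a Col-0 peak (887 bp and 76 bp). Another peak lay 2763 bp from PDF1.2, a defensin gene known as a target of jasmonate and ethylene, with 2.08 and 1.60, and it overlapped no H3K14Ac peak.

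By annotated product, the peaks were spread over many families. All 27444 protein-coding genes included 9592 (34.95%) with an ein2-5 H3K23Ac ethylene summit inside and 67 (0.244%) with an ein2-5-only summit. Of 262 pentatricopeptide repeat genes, which serve mostly in organelle RNA processing, 2 had an ein2-5-only summit (0.763%) and 88 any summit. These were EMB1025 and AT2G36730, the second with 2.44 with ethylene and 1.502 in air. Of 509 zinc finger genes 2 had one (0.393%) and 201 any summit. These were AT1G14770 (1.91 and 1.43) and AT1G21580 (1.99 and 2.19), whose summit lay 8456 bp from the start. The RING gene RING1 (2.43 and 1.87) and the major facilitator genes AT2G16990 (2.49 and 1.64) and AT3G01630 are in no list, since the lists go by the words of the product name. The uncharacterized genes had 5 of 3121 (0.160%), of which AT3G50040 (2.54 and 1.60) and AT1G65510 (2.01 and 1.43) had the highest −log10 P.

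Single members were found in 4 further lists. CYP702A5 was the 1 of 248 cytochrome P450 genes, with 1.84 with ethylene and 1.76 in air. MYB74 was the 1 of 179 MYB genes (2.01 and 1.82), FBH3 the 1 of 135 bHLH genes (2.08 and 1.87), and UGT85A3 the 1 of 145 UDP-glycosyltransferase genes. There were 0 of 1388 kinase genes although 571 of them held any ein2-5 H3K23Ac ethylene summit, 0 of 344 ribosomal protein genes although 197 held one, and 0 of 653 F-box genes, of which 87 held one. These zeros stand beside the 0.244% of all coding genes. The lists for transporter, disease resistance, WRKY, NAC, ethylene response factor, MADS, SAUR, peroxidase, heat shock, histone and photosystem genes also had 0.

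No ein2-5-only peak lay in or within 2 kb of any of 22 genes of ethylene signalling, from the receptors to targets of EIN3. Since 0.244% of all coding genes held an ein2-5-only summit, nothing is read from this 0. The nearest was 12460 bp from EIN3. Of the 22 genes, 19 held an ein2-5 H3K23Ac peak in at least 1 treatment, and all 22 held a Col-0 peak. EIN2 itself held 1 H3K23Ac peak with ethylene and 1 in air in ein2-5, and peaks of 2 of the 6 Col-0 lists.

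The widest of the 106 peaks were not among the strongest. They were 722 bp in GLYI4, a glyoxalase gene, with a fold enrichment of 1.67 with ethylene and 1.61 in air, 534 bp at a place 846 bp from AT4G01710, a subunit gene of the ARP2/3 actin complex (1.82 and 1.58), and 485 bp at a place 2687 bp from the small heat shock protein gene AT1G54050 (1.77 and 1.62). The fourth was the EMB1025 peak of 457 bp, the only one of these 4 among the strongest. Of the other peaks chosen for high fold enrichment with ethylene, that in AT2G14290 stood at 2.54 and 2.11 in air, and that in AT1G15940, a Tudor-domain gene, at 2.41 and 2.102. The strongest 12 were completed by the peak 2226 bp from PLC8 (2.64 and 1.61), and by those in AT5G10800 (2.37 and 1.83), an RNA recognition motif gene, AT1G31750 (2.50 and 1.67), a proline-rich protein gene, and AT1G80700 (2.56 and 1.92).

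Fewer of the 106 kept their ein2-5 calls once the ein2-5 lists were set to a lower depth. The Col-0 lists were left as called, so the number kept could only fall. The missing call in Col-0 was not examined again. With pileup and background of both ein2-5 H3K23Ac lists scaled to the smallest control, 2438541 tags, 10 of the 106 (9.43%, 5.21 to 16.5%) still passed the P threshold in both lists, against 33.3% (32.3 to 34.4%) of the other shared peaks. Within quartile 1 of −log10 P it was 1 of 58 (1.72%, 0.305 to 9.14%) against 9.23% (7.95 to 10.7%), and within quartile 2 it was 5 of 34 (14.7%, 6.45 to 30.1%) against 30.9% (28.8 to 33.1%). The intervals met in both quartiles. The 10 were the peaks in PRMT10, CSN6B, UGT85A3, CYCB1;5, AT1G48750, AIR3, AGP11, AT3G47610, AT3G52920 and the pseudogene AT5G07215. Of these 10, 9 overlapped an ein2-5 H3K14Ac peak in at least 1 treatment and 9 lay in a protein-coding gene. The like counts for the other shared peaks that passed are not given, so nothing particular is read from these 2 counts. Of all other shared peaks, 83.4% overlapped an H3K14Ac peak and 96.0% lay in a coding gene. In their quartile 4 of −log10 P it was 95.2% and 96.4%.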

How the data were processed

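Reads were aligned by the authors to TAIR10 (Bowtie2 2.1.0) and freed of duplicates (SAMtools). Replicates were then merged, and MACS2 2.1.0.20150603 called peaks at a P threshold of 0.01, with ChIP tags scaled to the smaller IgG control. For each peak the authors deposited the pileup, a coverage signal at the summit, the fold enrichment, a ratio over the local background, and the −log10 P-value and −log10 q-value. The file headers state that q was not calculated, yet that column holds values, which were used as they stand. Groups followed the sample labels (18 ChIP and 4 IgG libraries).

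The members and lists were chosen with earlier results of these data known. Peaks were intersected by at least 1 bp and summits placed on the TAIR10.1 annotation, whose chromosomes have the lengths of TAIR10. The background at each summit was derived from the other 2 values, and a Poisson P from it matched the deposited one with a median error of at most 0.000843 in −log10 P. The overlap code was checked on simulated intervals. Peaks named by rule had the highest −log10 P (12), fold enrichment (6) or width (4), or were extremes of distance and strength. Up to 2 were also named for each product list. Other named genes are outside this rule. They are examples picked with the values known, among them AGP11, LSU2, MC4 and PIP2E, or belong to sets given in full. Results were recomputed under 9 other settings, and under 1 more chosen after seeing the data. The software was Python 3.11.15 with scipy 1.17.1, pandas 2.3.3, numpy 2.4.6 and matplotlib 3.10.9.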

Additional observations from a re-analysis of the deposited data

How the results depend on the processing

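Of 60 values recomputed, 40 stayed within the interval of the main value or, for counts, within 1.5 times it. Asking for 50% cover or a summit in the air peak, a distance to Col-0 peaks or merging moved none. With q under 0.05 there were 55 members, with 52.7% on an H3K14Ac peak and a median fold enrichment of 2.25. With a fold enrichment of at least 2 in both ein2-5 lists there were 21, with 71.4% on H3K14Ac, 76.2% within 2 kb of a coding gene and a median of 2.26. With only the Col-0 H3K23Ac lists there were 1019, with 62.0% on H3K14Ac, 91.7% in coding genes and 97.7% within 2 kb. At the common control depth there were 10, with 90.0% on H3K14Ac, 90.0% in coding genes and 0% in gene-poor windows. The median of their deposited fold enrichments, which were not rescaled, was 2.25. Without the Col-0 H3K9Ac lists, an alternative chosen after seeing the data, there were 682, with 53.2% on H3K14Ac, 88.6% in coding genes and 96.8% within 2 kb. The number of members, their H3K14Ac share and their share in coding genes thus depend on the Col-0 lists used and on the strictness of the ein2-5 calls, and the cause was not tested. The H3K14Ac and coding-gene shares of the other shared peaks are not given under these settings. No paired analysis was possible because replicate libraries were pooled into 1 list each, and for the same reason no replicate could be left out.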

Other observations

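The ein2-5-only peaks were 106 of 8129 shared ein2-5 peaks (1.30%, 1.08 to 1.57%), and the rule with the genotypes exchanged took 191 of 4315 shared Col-0 H3K23Ac ethylene peaks (4.43%, 3.85 to 5.08%), which overlap a Col-0 air peak and no peak of the 4 ein2-5 lists. The 2 rules exclude against different numbers of lists and marks and rest on controls of different depth, so the shares are not a comparison of the genotypes. Without the Col-0 H3K9Ac lists, which have no ein2-5 counterpart, the first rule took 682 of the 8129 (8.39%, 7.81 to 9.01%). The order of the 2 shares thus depends on the marks excluded, and the controls still differ in depth. The summit was in a coding gene for 63.2% (53.7 to 71.8%) of the 106 and 88.6% (86.0 to 90.7%) of the 682. For the 191 it was 96.9% (93.3 to 98.6%). The fold enrichment of the 191 with ethylene had a median of 1.94 (1.40 to 3.11).

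A further 219 peaks of the ein2-5 H3K23Ac ethylene list overlapped no Col-0 peak and no ein2-5 air peak. The 106 were chosen to have an air peak and the 219 to have none. With ethylene, an ein2-5 H3K14Ac peak overlapped 28.3% (20.6 to 37.5%) of the 106 and 20.5% (15.7 to 26.4%) of the 219, and these intervals met. In air it overlapped 34.0% of the 106 and 4.11% of the 219. Summits in coding genes made up 63.2% of the 106 and 60.7% (54.1 to 66.96%) of the 219. The median GC content of the 219 was 37.3%, and their median fold enrichment was 2.13.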
